A study of Zea mays with 6 samples.

Results

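Long loci, whose interval on the genome spans 30 kb or more, were described in maize (Zea mays) kernels with and without a working o11 gene. They were chosen by their position alone and then by expression: an interval on chromosomes 1 to 10 with an end at least 30000 bp after its start, listed in 1 row only, and reaching 1 FPKM in 3 or more of the 6 libraries. FPKM counts sequenced fragments per kilobase of transcript, scaled to the size of the library. Of the 32666 loci listed, 402 on these chromosomes were that long, 113 of them shared their interval with another row, and 289 stood alone. Of the 289, 226 passed the expression limit and form the set described here. The other 63 were low or close to silent. None was listed at 0 in all libraries, but the highest value of a locus in any library had a median of only 0.269 FPKM. The largest of these values was 2.88 FPKM, and 9 of the 63 reached 1 FPKM in 1 or 2 libraries. They were set against 12454 expressed loci of 1000 to 5000 bp, chosen in the same way.

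The study compared wild-type (WT) kernels with kernels homozygous for the o11 mutation, both sampled 15 days after pollination, with 3 libraries per genotype, numbered 1 to 3 in each. The labels name the tissue as kernel and the design text as endosperm. The genetic background, the o11 allele and the number of ears or plants behind a library are not given in the sources used here, so p-values reflect the spread among these 6 libraries, part of which may be technical. The loci carry no gene names and no reference of their build (B73 RefGen_v3) was used, so neither the tissue markers nor the o11 transcript could be checked and members are named by position.

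A maize gene that spans such a distance usually does so through long introns, many of which hold nested transposable elements, above all LTR retrotransposons. RNA polymerase has to copy the whole interval and the splicing machinery has to remove the introns before the mature transcript can be exported. The opaque11 product is an endosperm regulator of the basic helix-loop-helix class, and the endosperm is where the kernel lays down its starch and zein proteins. An interval in the files is the span of a locus on the genome and not the length of its transcript, which was not given in the sources used here.

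Expressed loci numbered 20995 to 22493 per library at 1 FPKM or more. Relative depth, read from the steps between low values, lay between 0.883 and 1.30 with WT replicate 1 set to 1; the number of fragments is unknown. The summed FPKM was lower in the o11 library of each same-numbered pair, and so was the summed FPKM of plastid and mitochondrial transcripts (37.0, 268 and 143 in WT against 35.1, 228 and 54.7 in o11, by replicate number), whose part in the results below was not tested. In bulk tissue, fewer cells of a type and less RNA per cell cannot be told apart.

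Expressed long loci lay in more open stretches of the chromosomes than short ones. Their median length was 40.2 kb, with 155 of 30 to 50 kb, 63 of 50 to 100 kb and 8 of 100 kb or more. The nearest other listed interval was a median of 23.7 kb away, against 5.41 kb for loci of 1000 to 5000 bp. In the 500 kb on either side together, a median of 13.5 other intervals was listed, against 20 for the short loci. No other interval lay within 100 kb of 40 of the 226 long loci (17.7%), against 584 of the 12454 short ones (4.69%). The middle 40% of the chromosomes held 89 of the long loci (39.4%) and 2789 of the short ones (22.4%). Chromosome 7 had the highest share of long loci among its expressed loci (1.61%, 27 loci) and chromosome 10 the lowest (0.722%, 10 loci). No listed interval on chromosomes 1 to 10 overlapped a different one, and rows that share an interval were left out by the rule. That no member contains another listed locus therefore follows from how loci are listed and chosen. Whether a long interval is 1 gene model or a merged one cannot be told from the sources used here.

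Long loci were expressed more often than short ones but less often than loci of intermediate length. The share that passed the expression limit was 46.8% under 1 kb and 65.8% from 1 to 5 kb. It was 84.0%, 87.8% and 84.1% in the bins of 5 to 10, 10 to 20 and 20 to 30 kb. Above the 30 kb limit it was 81.2% from 30 to 50 kb, 74.1% from 50 to 100 kb and 61.5% (8 of 13) at 100 kb or more. Over all 289 long loci it was 78.2% (95% Wilson interval over loci 73.1% to 82.6%).

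The median level of expressed long loci was close to that of all loci, and the expression limit had removed the lowest members. The median of the mean FPKM was 10.9 (quartiles 4.43 and 19.8), against 8.44 (3.21 and 21.9) for loci of 1000 to 5000 bp, 12.9 (6.02 and 25.6) for loci of 5 to 30 kb and 9.63 over all tested loci. Of the 226, 64 had a mean under 5 FPKM (28.3%), 106 lay from 5 to 20, 50 from 20 to 100 and 6 at 100 or more (2.65%). Under 5 FPKM lay 4433 of the 12454 short loci and 1285 of the 6307 loci of 5 to 30 kb. At 100 FPKM or more lay 648 and 179 of them. At least 1 FPKM in all 6 libraries was reached by 207, and 0 were under 1 FPKM in all 3 libraries of 1 genotype.

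**Figure D1:**
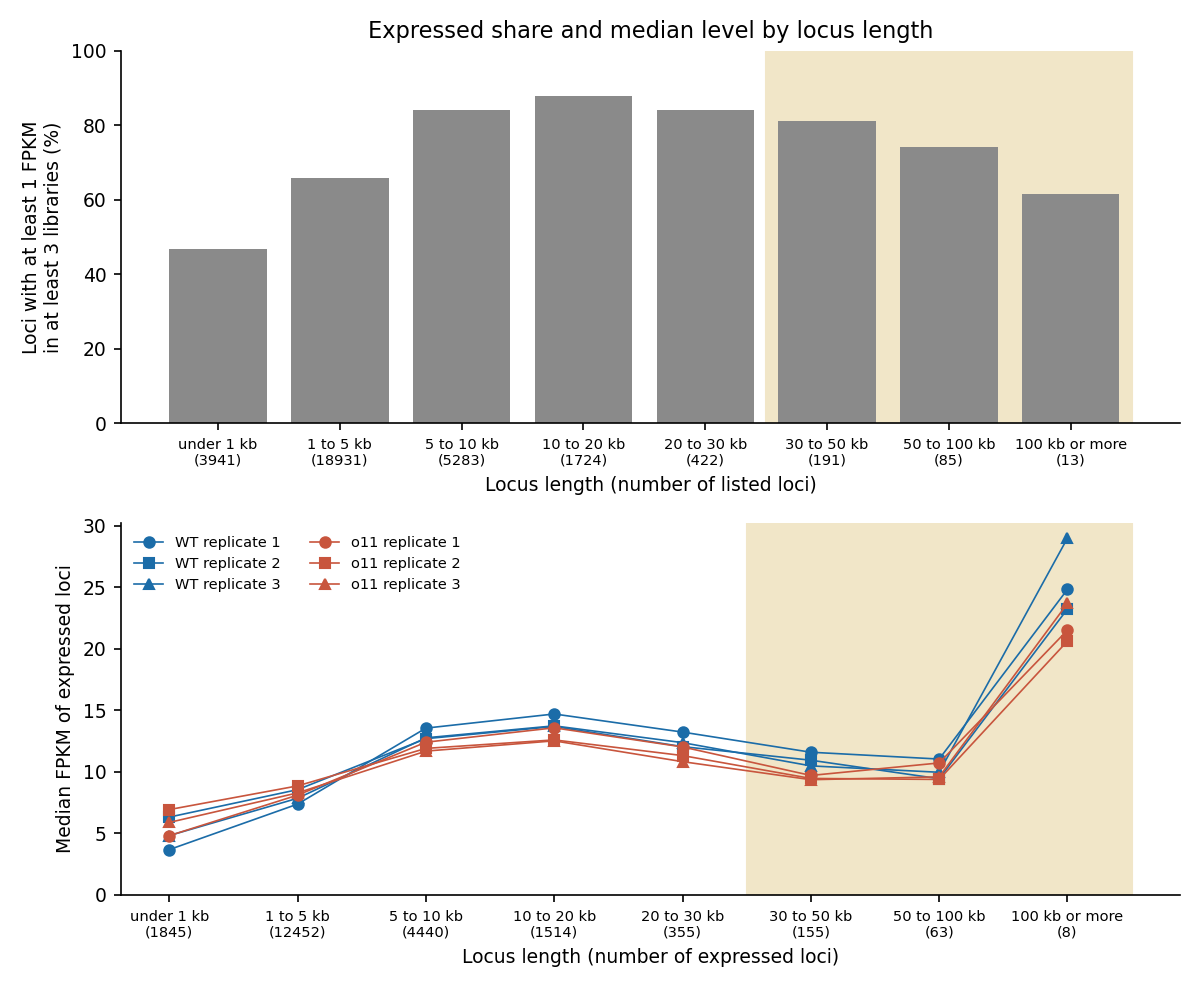
The upper panel plots, by locus length, the percentage of listed loci that passed the expression limit; the lower panel plots the median FPKM of the expressed loci in each library (blue WT, red o11, with a circle, square or triangle for replicate 1, 2 or 3), and shading marks lengths of 30 kb or more. The expressed share is highest at 10 to 20 kb (87.8%) and declines to 61.5% at 100 kb or more, a bin of 13 loci.

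In each library the median long locus was above the median short locus. By replicate number, the median FPKM of the long loci was 11.8, 11 and 10.4 in WT and 10.5, 9.52 and 9.54 in o11. That of the loci of 1000 to 5000 bp was 7.39, 8.56 and 7.86 in WT and 8.12, 8.87 and 8.30 in o11. On the log2(FPKM + 1) scale the long loci were higher by 0.61, 0.32 and 0.36 in WT and by 0.34, 0.09 and 0.18 in o11. The 6 libraries thus differed in the size of this gap (0.32 ± 0.18, SD, n = 6), with WT replicate 1 at the top and o11 replicate 2 at the bottom, and in every pair the gap was smaller in o11. With no filter on low values the mean gap was 0.99.

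A few members held a large share of the signal of the long loci. The 5 most abundant together accounted for 47.4% of the FPKM summed over the 226, and the most abundant alone for 27.0%. Expression of long loci summed to between 0.634% and 0.819% of the FPKM of all tested loci in a library.

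The most abundant long locus lay on chromosome 5 (159722272 to 159769511, 47.2 kb). By replicate number it was listed at 2157, 1534 and 2443 FPKM in WT, against 1412, 1009 and 1600 in o11; values below follow the same order. The o11 library was the lower of each pair, by nearly the same amount on the log2 scale (-0.61, -0.60 and -0.61), although the genotypes overlapped. When replicate number entered limma as a block (the blocked fit), the fall was called (log2 change -0.61, SE 0.10, adjusted p = 0.0182), and without that block it was not (SE 0.33, adjusted p = 0.472). In the blocked fit the call was lost with no filter on low values and in the replicate 2 and 3 libraries alone. It was also lost without any 1 of the replicate 1 or 2 libraries of either genotype (adjusted p up to 0.117). In that fit, a library left out also takes its partner out of the genotype estimate. The next interval, 27.1 kb away (159796628 to 159797566, 0.939 kb), was of similar abundance, at 917, 2605 and 3259 FPKM in WT and 762, 1666 and 1846 in o11. Its change was -0.58 (adjusted p = 0.0467 with and 0.746 without the block), and the genotypes overlapped. This interval was looked up after the values of the long locus were seen. Whether these neighbours share near-identical sequence, and so reads, cannot be read from the files, and the level of either is uncertain to that extent.

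The longest expressed locus was also the second in abundance, on chromosome 3 (23906023 to 24097603, 191.6 kb). WT stood at 407, 731 and 584 FPKM, and o11 at 598, 902 and 908. Each o11 library exceeded its WT partner, and the only overlap was WT replicate 2 above o11 replicate 1. In the blocked fit it rose by 0.50 (SE 0.10, adjusted p = 0.0313), a call not made without the block (SE 0.31, adjusted p = 0.537). The blocked call was lost under the same settings as that of the most abundant locus (adjusted p up to 0.169).

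The third in abundance, on chromosome 1 (31073182 to 31210660, 137.5 kb), showed the replicate order far more than the genotype. It was listed at 184, 249 and 396 FPKM in WT and at 200, 262 and 375 in o11 (log2 change 0.04, adjusted p = 0.753 with and 0.981 without the block). The fourth, on chromosome 5 (159328891 to 159361547, 32.7 kb), had 154, 128 and 297 FPKM in WT and 169, 144 and 327 in o11. It was highest in replicate 3 of both genotypes, and its change of 0.15 (SE 0.07, adjusted p = 0.188 with the block) was slightly above 0 in each pair. The fifth is among the rises described further on.

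The other very long members were mostly low or moderate. A locus of 150.7 kb on chromosome 1 (165830871 to 165981583) was listed at 4.97, 3.81 and 2.69 FPKM in WT and at 2.57, 3.08 and 3.03 in o11, with pair differences of both signs (adjusted p = 0.34 with the block). A locus of 136.8 kb on chromosome 5 (105681405 to 105818171) was steadier, at 32.4, 28.8 and 34.8 FPKM in WT and 28.0, 26 and 26.5 in o11. It was lower in o11 without overlap between the genotypes, by 0.24 (SE 0.08), yet short of the threshold (adjusted p = 0.107 with and 0.484 without the block). Among the 226, length and mean level had a Spearman rho of 0.07, and length and log2 change one of 0.02, both over loci that share the same 6 libraries.

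Most long loci were slightly lower in o11, and few changed much. On the log2(FPKM + 1) scale, the mean change was below 0 for 134 of the 226 and above 0 for 92. Its median was -0.09, with quartiles of -0.26 and 0.19 and extremes of -1.49 and 1.69. For loci of 1000 to 5000 bp the median was 0.05 (quartiles -0.17 and 0.30), and over all tested loci it was 0.00.

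Same-numbered pairs differed in how far apart the length classes were. The median difference of the long loci was -0.10, -0.02 and -0.09 in pairs 1 to 3, and that of the short loci was 0.08, 0.03 and 0.04. Long minus short was therefore -0.18, -0.05 and -0.13, with a mean of -0.12 ± 0.06 (SD, n = 3 pairs). The sign was the same in each pair, and the gap was smallest in pair 2. Over pairs 2 and 3, listed with one set of tools, the mean was -0.09. With no filter on low values the mean of the 3 pairs was -0.039. The o11 value was the lower of the pair in all 3 pairs for 92 long loci (40.7%; 29.6% of all tested loci) and the higher in all 3 for 58 (25.7%; 29.4%), which makes 150 with a single sign (66.4%; 59.1%).

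**Figure D2:**
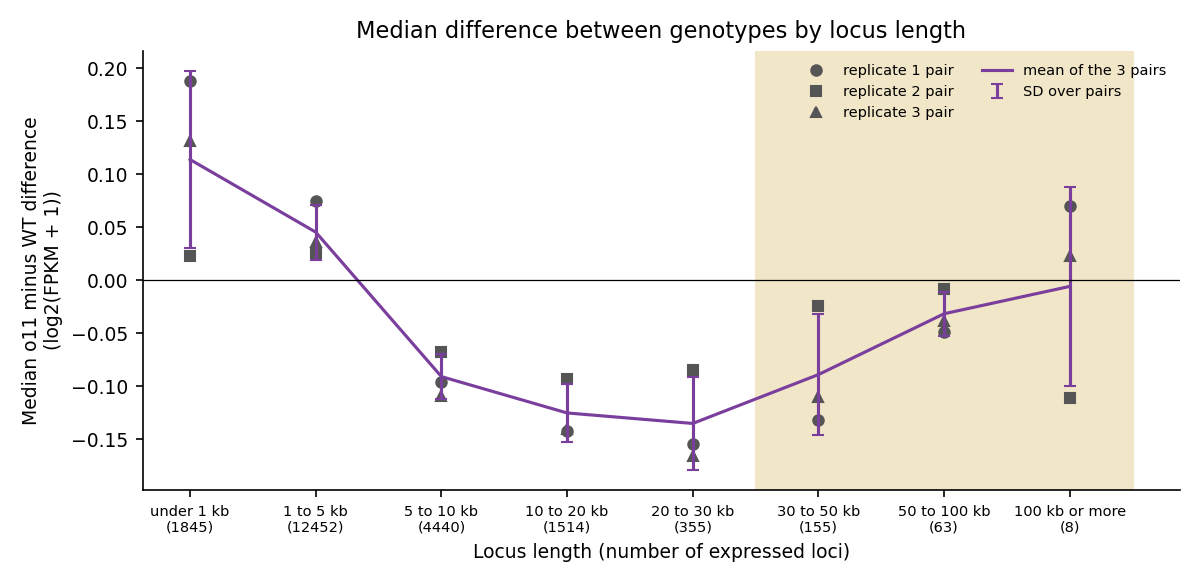
The plot gives the median o11 minus WT difference in log2(FPKM + 1) for loci of each length bin, with 1 point per same-numbered pair (circle, square and triangle for replicates 1 to 3), a line for the mean of the 3 pairs and bars for their SD; shading marks lengths of 30 kb or more. Bins under 5 kb lie above 0 in each pair, the bins from 5 to 100 kb lie below 0 in each pair, and the bin of 100 kb or more, with 8 loci, has both signs.

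The downward offset was not a feature of long loci alone. The mean of the 3 pair medians was 0.11 ± 0.08 under 1 kb and 0.05 ± 0.03 from 1 to 5 kb (SD, n = 3 pairs). It was -0.09 ± 0.02 from 5 to 10 kb, -0.13 ± 0.03 from 10 to 20 kb and -0.13 ± 0.04 from 20 to 30 kb. Above the limit it was -0.09 ± 0.06 from 30 to 50 kb and -0.03 ± 0.02 from 50 to 100 kb. The values above 30 kb thus lay between those of the shortest and the intermediate loci. Across all 20832 tested loci with an interval of their own, length and log2 change had a Spearman rho of -0.24 (-0.28, -0.14 and -0.20 in pairs 1 to 3). Over the 6535 of 5 kb or more rho was -0.06. Length goes with level (rho 0.18 over the same 20832 loci), and transcript length was not at hand, so neither was held fixed in these values.

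Calls among the long loci were about as frequent as among all loci. Without the block limma called 0 of the 226 (0.793% of all tested loci were called), with 37 at an unadjusted p under 0.05 and a smallest adjusted p of 0.0562. With the block, 42 of the 226 were called, or 18.6%, beside 19.2% of all tested loci and 19.0% of the loci of 1000 to 5000 bp. Of the 42, 17 rose (7.52%; 9.83% of all tested loci rose) and 25 fell (11.1%; 9.33%), whereas 1458 of the short loci rose and 904 fell. Upper-quartile scaling, which moved the median of all loci to 0.04, left 22 rises and 21 falls among the long loci. In the replicate 2 and 3 libraries alone, 3 long loci were called in the blocked fit, all of them falls. Removing WT replicate 1 left 2 calls among the long loci and removing WT replicate 2 left 4. Removing o11 replicate 1 left 3, and removing o11 replicate 2 left 6. Calls among the loci of 1000 to 5000 bp also dropped in the replicate 2 and 3 libraries alone and without WT replicate 1. Shares over all tested loci are not given for the scaling and these runs. The counts therefore do not show whether long loci gained or lost calls more than other loci did.

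**Figure D3:**
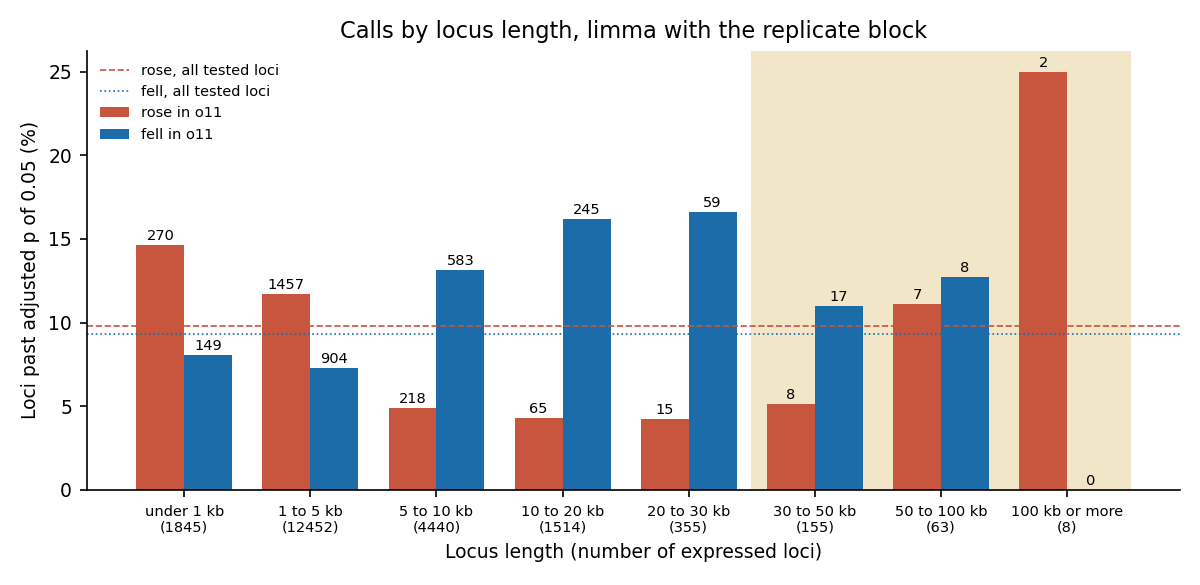
Bars give the percentage of tested loci in each length bin that rose (red) or fell (blue) in o11 at an adjusted p under 0.05 in limma with the replicate block, with counts above the bars, dashed and dotted lines for the shares over all tested loci, and shading for lengths of 30 kb or more. Falls outnumber rises from 5 kb to 100 kb, with the highest share of falls among the calls at 20 to 30 kb (59 falls against 15 rises), and the long bins hold 8 and 17, 7 and 8, and 2 and 0 rises and falls.

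The split between rises and falls differed between the length bins of the long loci. The counts are small, and whether the split depends on length was not tested. From 30 to 50 kb, 8 rose and 17 fell of 155. The 63 loci of 50 to 100 kb held 7 rises and 8 falls, and the 8 loci of 100 kb or more held 2 rises and 0 falls. For comparison, the 6307 loci of 5 to 30 kb held 297 rises and 887 falls. The groups of 3 libraries did not overlap for 52 long loci (23%; 21.5% of all tested loci), of which 34 were lower and 18 higher in o11.

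Large changes were few among long loci. On the log2(FPKM + 1) scale, which understates changes of low loci, a mean change of at least 2-fold was found for 6 of the 226 (2.65%, 95% Wilson interval over loci 1.22% to 5.67%; 4.81% of all tested loci), 5 upward and 1 downward. It was found for 5.06% of the loci of 1000 to 5000 bp and for 1.81% of those of 5 to 30 kb. At a pseudocount of 0.1 the share of the long loci was 5.75% (13 loci). The share over all tested loci at that pseudocount is not given here, so this value has no comparison. By the ratio of the mean FPKM itself, 14 long loci lay at least 2-fold apart, 7 higher and 7 lower in o11 (6.19%; 7.68% of all tested loci). The model's standard error was smaller for long than for short loci (median 0.113 against 0.128 with the block, and 0.20 against 0.24 without). It was smaller still for loci of 5 to 30 kb, at 0.107 with the block and 0.19 without.

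Among long loci, falls were most frequent at 20 to 100 FPKM. From 20 to 100 FPKM, 37 of 50 (74.0%) had a mean change below 0, with 3 rises and 11 falls in the blocked fit and a median change of -0.16. From 5 to 20 FPKM the median was -0.09, with 6 rises and 10 falls of 106. Under 5 FPKM it was -0.06, with 6 rises and 3 falls of 64. The loci of 1000 to 5000 bp had medians of 0.01, 0.03 and 0.10 in the same bins, in that order, so the long loci were the lower class in each. Loci of 5 to 30 kb had -0.15, -0.10 and a median close to 0. Long loci were much like these at 20 to 100 FPKM: 6.0% rose and 22% fell, beside 4.81% and 23.5% of the loci of 5 to 30 kb, of which 70.2% were below 0. Falls also grew more frequent with level over these bins in the short loci, at 2.77%, 6.95% and 13.2% from the lowest to the highest. Rises of the short loci grew more frequent too, at 9.11%, 11.1% and 14.1%. The 6 most abundant long loci, at 100 FPKM or more, held 2 rises and 1 fall. Their median change was 0.09, so in this bin they were not below the short loci (0.08), and loci of 5 to 30 kb had -0.18.

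**Figure D4:**
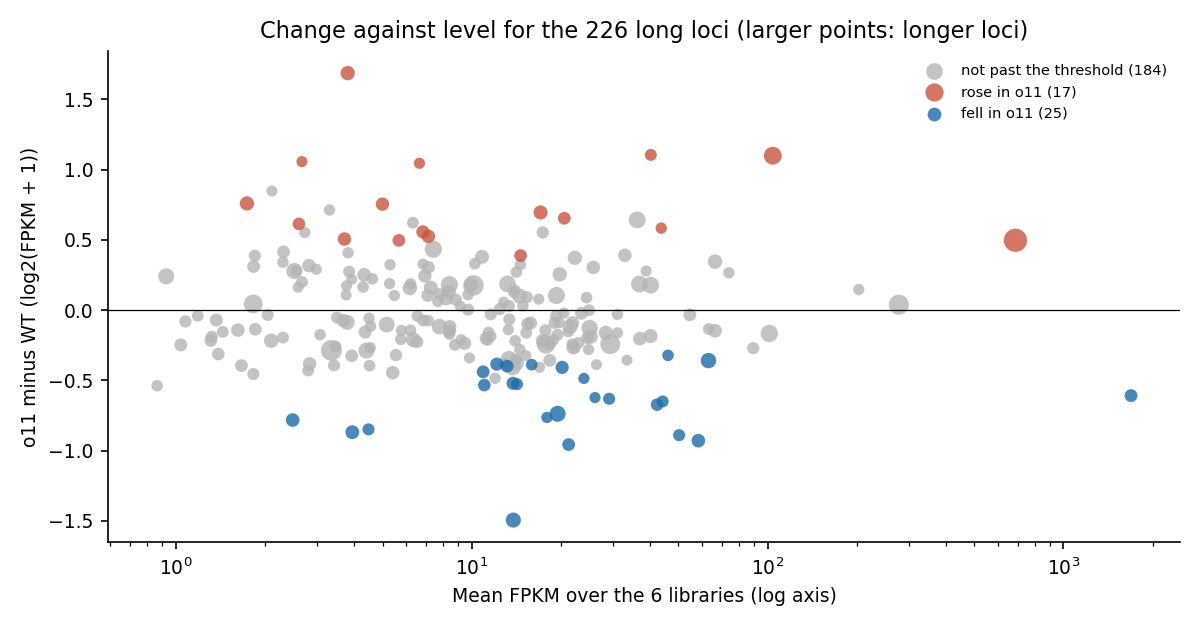
Each point is 1 of the 226 long loci, with its mean FPKM over the 6 libraries on a log axis against its o11 minus WT change in log2(FPKM + 1), red where it rose, blue where it fell and grey where it did not pass the threshold in the blocked fit, and a larger point for a longer locus. Rises have a median level of 6.84 FPKM and falls one of 19.5 FPKM, and 6 loci lie past a change of 1 in either direction.

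Falls called in the blocked fit ran from -0.32 to -1.49 on the log2 scale, with a median of -0.62, and lay on 8 chromosomes.

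The largest fall was at a locus of 70.9 kb on chromosome 4 (172635729 to 172706662). It was listed at 16.9, 19.6 and 26 FPKM in WT and at 5.35, 6.02 and 9.03 in o11. The genotypes were far apart, at 20.9 ± 4.65 against 6.80 ± 1.96 FPKM (SD, n = 3), a 3.07-fold lower level in o11. Its log2 change was -1.49 (blocked SE 0.09 and adjusted p = 0.00337; SE 0.24 and adjusted p = 0.057 without the block). In the blocked fit this call held under each alternative run for it (adjusted p from 0.00213 to 0.0292). These included each single library left out, which in that fit drops the whole pair from the genotype estimate. Neither flanking locus was called (log2 changes -0.43 and -0.19, adjusted p = 0.0872 and 0.248).

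A locus of 46.4 kb on chromosome 5 (161900129 to 161946558) fell 2.02-fold, from 27.9, 24.5 and 33.0 FPKM in WT to 14.0, 13.7 and 14.5 in o11. The o11 values were nearly equal to each other. Its log2 change was -0.96 (blocked SE 0.10 and adjusted p = 0.00765; adjusted p = 0.0562 without the block). This call was lost in the replicate 2 and 3 libraries alone and without either replicate 1 library (adjusted p up to 0.0586). Its flanking loci, over 100 kb away on either side, had changes of 0.05 and 0.06.

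A locus of 54.4 kb on chromosome 1 (89785115 to 89839554) was at 50.6, 76.1 and 107 FPKM in WT and at 32.5, 41.1 and 43.1 in o11. The WT values spread widely, yet the lowest was above each o11 value (log2 change -0.93, blocked SE 0.14 and adjusted p = 0.0159; adjusted p = 0.202 without the block). The call was lost without WT replicate 1, WT replicate 2 or o11 replicate 2 (adjusted p up to 0.0691).

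Another chromosome 1 locus, of 39.5 kb (236148441 to 236187902), was at 77.6, 59.5 and 58.7 FPKM in WT and at 45.6, 32.4 and 27.7 in o11. Replicate 1 was highest in both genotypes, and the genotypes did not overlap (log2 change -0.89, blocked SE 0.09 and adjusted p = 0.00715; adjusted p = 0.138 without the block). In the blocked fit this call, like that on chromosome 4, held under each alternative run for it (adjusted p up to 0.047).

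The fifth of the falls, a locus of 32.8 kb on chromosome 5 (31675092 to 31707845), was at 23.8, 21.0 and 23.8 FPKM in WT and 12.5, 11.8 and 14.9 in o11. Both groups were tight (log2 change -0.76, blocked SE 0.09 and adjusted p = 0.0101; adjusted p = 0.0813 without the block). This call was lost in the replicate 2 and 3 libraries alone and when any replicate 1 or 2 library was left out (adjusted p up to 0.0751). The locus 7266 bp to the right of this long locus fell too (log2 change -1.30, adjusted p = 0.0106 with the block).

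**Figure D5:**
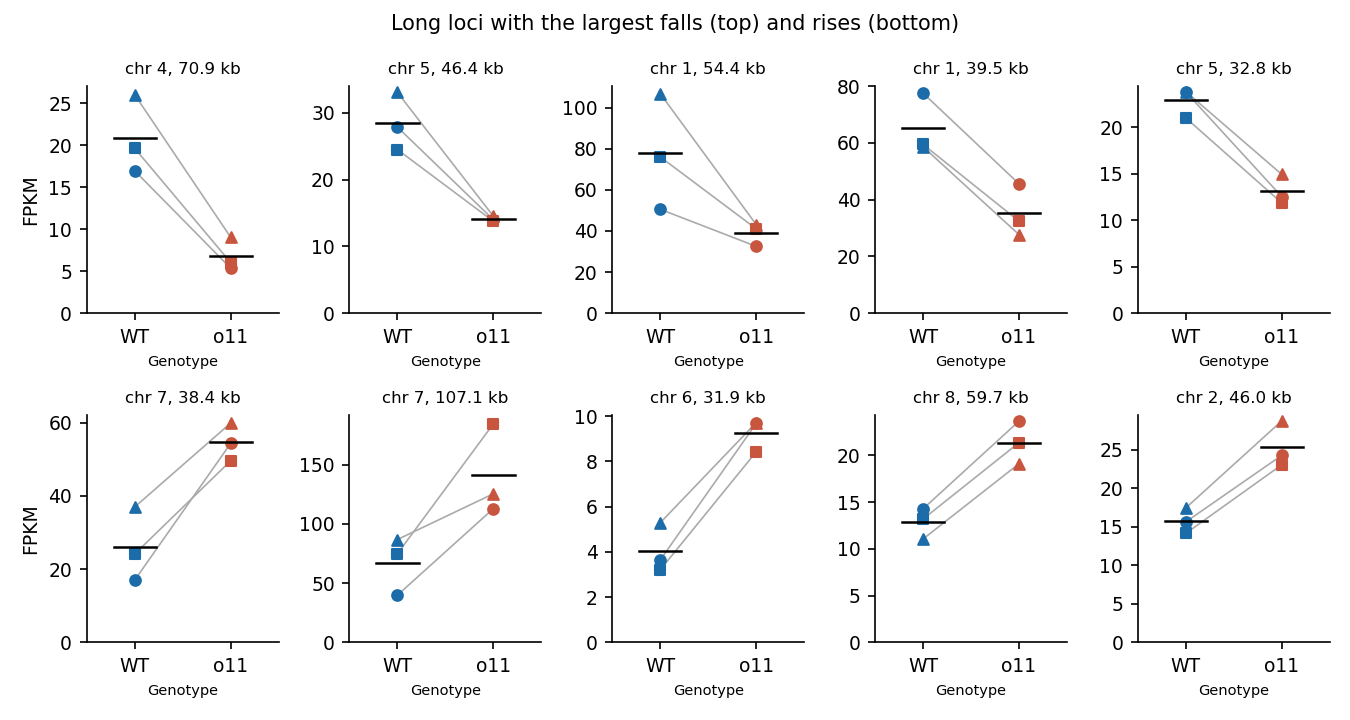
Each panel plots the FPKM of 1 long locus in the 3 WT (blue) and 3 o11 (red) libraries, with a circle, square or triangle for replicates 1 to 3, grey lines between same-numbered libraries and a black bar for each mean; the upper row holds the 5 largest falls and the lower row the 5 largest rises among loci called with the block at a mean of at least 5 FPKM. In each of the 10 panels the genotypes do not overlap, and the largest shift is the 3.07-fold lower level of the 70.9 kb locus on chromosome 4.

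Rises ran from 0.39 to 1.69, with a median of 0.65, and lay on 9 chromosomes. A locus of 38.4 kb on chromosome 7 (152740409 to 152778847) was listed at 17.0, 24.1 and 37.0 FPKM in WT and at 54.3, 49.6 and 59.9 in o11. WT varied more than o11, and the mean rose 2.10-fold (log2 change 1.10, blocked SE 0.19 and adjusted p = 0.0205; adjusted p = 0.137 without the block). The locus 4590 bp to its left also rose (log2 change 1.13, adjusted p = 0.0242 with the block).

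The fifth most abundant long locus, of 107.1 kb on chromosome 7 (108309686 to 108416833), was at 39.9, 74.9 and 86.9 FPKM in WT and at 113, 185 and 126 in o11. Each o11 value exceeded each WT value, though the pair difference ranged from 0.53 in pair 3 to 1.48 in pair 1 (log2 change 1.10, blocked SE 0.19 and adjusted p = 0.0227; adjusted p = 0.202 without the block). The adjacent interval on its left was too low to be tested, and the one on its right, 91465 bp away, had a change of 0.04.

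A locus of 31.9 kb on chromosome 6 (166795461 to 166827341) rose from 3.64, 3.21 and 5.29 FPKM in WT to 9.68, 8.43 and 9.72 in o11. This is a 2.29-fold rise of a low transcript (log2 change 1.05, blocked SE 0.13 and adjusted p = 0.0117; adjusted p = 0.0786 without the block).

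A locus of 59.7 kb on chromosome 8 (53936870 to 53996599) rose from 14.3, 13.2 and 11 FPKM to 23.6, 21.3 and 19.1. The difference was nearly the same in the 3 pairs, at 0.69, 0.66 and 0.74 (blocked SE 0.08 and adjusted p = 0.0101; adjusted p = 0.114 without the block). It lay in one of the emptiest stretches, with 3 other intervals in the 500 kb on either side.

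A locus of 46.0 kb on chromosome 2 (121392280 to 121438293) rose from 15.6, 14.2 and 17.4 FPKM to 24.3, 23.1 and 28.8. It too had even pair differences, of 0.60, 0.67 and 0.69 (blocked SE 0.08 and adjusted p = 0.0107; adjusted p = 0.121 without the block). Each of these 5 rises lost its call in the blocked fit in the replicate 2 and 3 libraries alone. The calls were also lost when a replicate 1 or 2 library of either genotype was left out (adjusted p up to 0.0971). Each of the 5 kept a change above 0.

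The largest rise of all lay under the level limit used for these examples and was picked out after its values were seen. This locus of 62.4 kb on chromosome 2 (63353805 to 63416187) was listed at 1.70, 2.91 and 0 FPKM in WT and at 6.90, 5.48 and 5.89 in o11. It was the only one of the 226 listed at 0 in any library, and a 0 in such files can be a failed estimate (log2 change 1.69, blocked SE 0.39 and adjusted p = 0.0421; adjusted p = 0.183 without the block).

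A few neighbours of changed long loci were called in the same direction. By the blocked fit, 3 of the 20 tested neighbours of rising long loci rose (15%, beside 9.83% of all tested loci) and 1 fell. Of the 35 tested neighbours of falling ones, 5 fell (14.3%, beside 9.33% of all tested loci) and 2 rose. Next to long loci that were not called, 27 of 228 neighbours rose (11.8%) and 15 fell (6.58%). These counts are small and were not tested. A change of the same sign was shared with 14 of the 20 (70%), 21 of the 35 (60%) and 124 of the 228 (54.4%). Over all tested loci 49.6% had a mean change below 0, so a shared sign is frequent in itself.

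Several long loci differed more between replicates than between genotypes. Taking the mean of both genotypes per replicate number, replicate 3 differed from the mean of replicates 1 and 2 by at least 1 on the log2 scale for 10 of the 226 (4.42%; 9.28% of all tested loci), lower for 9 of them. The widest range was at a locus of 92.3 kb on chromosome 1 (77266302 to 77358639), with 31.1, 59.5 and 3.61 FPKM in WT and 46.7, 67.2 and 9.47 in o11. A locus of 80.8 kb on the same chromosome (277218151 to 277298925) was at 9.16, 7.41 and 0.264 FPKM in WT and 7.56, 6.17 and 0.423 in o11. The third, of 143.5 kb on chromosome 3 (168738873 to 168882335), was at 11.8, 17.7 and 1.31 FPKM in WT and 12, 15.3 and 2.77 in o11. In all 3 the replicate 3 libraries of both genotypes were far below the other 4, and none was called between genotypes (adjusted p = 0.0795, 0.635 and 0.548 with the block). The second of them lies 78542 bp from another long locus of this group of 10, which starts at 277377468.

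Around the length limit itself the values were unremarkable. Just above it, a locus of 30012 bp on chromosome 5 (from 23357125) had a mean of 3.58 FPKM in WT and 3.96 in o11, and one of 30052 bp on chromosome 3 (from 77019435) had 24.6 and 20.1. Just below it, loci of 29945 bp on chromosome 7 (from 120570689) and 29863 bp on chromosome 1 (from 210806880) had 12.3 and 10.8 FPKM, and 122 and 102 FPKM, in the same order.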

How the data were processed

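The authors deposited 1 FPKM value per locus and library, per the file headers. Per the submitters' processing notes the build was B73 RefGen_v3; Bowtie 0.12.2 is listed for the replicate 1 libraries, and TopHat and Cufflinks, without versions, for replicates 2 and 3. Annotation and strand setting: not given in the sources used here. Starts, deposited counting from 0, are printed counting from 1.

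The values, as log2(FPKM + 1), entered limma 3.58.1 (R 4.3.3) with a mean-variance trend and genotype as the term, over all 22314 loci at 1 FPKM or more in 3 or more libraries, with Benjamini-Hochberg adjustment and a threshold of 0.05. This scale understates changes of low loci. The fit was also run on simulated data with known changes and independent noise, set to the spread left after genotype and replicate. The check required only that mean estimates lay near the known changes. It cannot show how many calls in the real libraries are false. Deviations of same-numbered WT and o11 libraries from their genotype means correlated at 0.75, 0.67 and 0.76, each over 0.1. Replicate numbers were therefore treated as pairs, on the evidence of the data and not the labels, and blocked values are printed beside the others. Intervals cover counting error only.

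The members and lists were chosen with earlier results of these data known. Long loci were named by rule: the 5 most abundant, the 5 longest, those called without the block, the 5 largest rises and falls in the blocked fit at a mean of at least 5 FPKM, the 3 widest replicate ranges at that level, the 2 on either side of the limit, and loci at 50 FPKM in some library but 0 elsewhere (0 found). Gene names, tissue markers and sequences were not used here.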

Additional observations from a re-analysis of the deposited data

How the results depend on the processing

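Alternatives covered the pseudocount, filters, scaling, libraries left out, a term for replicate 1, the length limit and the replicate block; the replicate 1 and 2 libraries alone, long loci that share their interval, and alternatives for named loci within the blocked fit were chosen after seeing the data. Leaving out loci that overlap another was not run, since none did. Without the block, 177 calls over all loci, 0 among long loci and 120 among loci of 1000 to 5000 bp became 4276, 42 and 2362 with the replicate block; 430, 4 and 264 with a term for replicate 1; 93, 0 and 57 with no filter; 94, 0 and 60 at a mean of at least 5 FPKM; 0, 0 and 0 in replicates 2 and 3 alone; and 3, 0 and 2 in replicates 1 and 2 alone. The ranges with 1 library removed were 2 to 14, 0 to 0 and 2 to 11. Quantile normalization, upper-quartile scaling and a limit of 20 kb each gave 1 call among long loci.

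With the block, the 42 and 2362 calls became 3 and 281 in replicates 2 and 3 alone, and 2 to 50 and 278 to 2910 without 1 library, lowest without WT replicate 1. In this fit a library left out takes its partner out of the genotype estimate. Leaving out either library of a pair is therefore close to the same check, and fewer libraries also leave less power. A limit of 20 kb gave 116 of 581 and one of 50 kb 17 of 71. The long minus short median change of -0.12 became -0.039 with no filter and -0.15 to -0.09 with 1 library left out. The level gap of 0.32 became 0.99 with no filter. The 2-fold share of 2.65% became 5.75% with a pseudocount of 0.1 and 6.19% by the ratio of mean FPKM (added after seeing the data), and the expressed share of 78.2% became 72.4% at 50 kb.

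Some changes of named loci called in neither fit turned sign. The locus on chromosome 1 from 31073182 was at -0.026 with quantile normalization and -0.0013 in replicates 2 and 3 alone, and ran from -0.22 to 0.33 without 1 library (-0.0013 to 0.10 with the block). The chromosome 3 locus from 168738873 was at -0.090 in replicates 1 and 2 alone, and ran from -0.74 to 0.83 (-0.090 to 0.36 with the block). The chromosome 5 locus from 23357125 was at -0.0026 with quantile normalization and ran from -0.060 to 0.30. Without 1 library and without the block, the loci from 159328891, 77266302 and 277218151 ran from -0.21 to 0.50, -0.44 to 1.46 and -1.06 to 0.72. The cause was not tested.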
